A study of Drosophila melanogaster with 2 samples.

Results

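Binding of the homeodomain protein Drgx was examined at its distal intergenic peaks. These were taken from the combined thresholded peak list of the study, restricted to the major chromosome arms, and kept where the summit lay in no annotated gene, more than 500 bp from every transcription start site (TSS) and more than 5000 bp from the nearest protein-coding TSS. The rule used position alone. It gave 544 of the 8443 peaks in the list, or 6.44%, against 7899 other peaks. The study profiled 1-day whole embryos of Drosophila melanogaster from a strain called Drgx-GFP, in which an insertion targets the Drgx gene and the flies express a Drgx-eGFP fusion protein. Chromatin was sonicated to a labelled size range of 200 to 800 bp and precipitated with an antibody against GFP, followed by sequencing. There was 1 group with 2 biological replicates, and control libraries were not analysed here. The signal is therefore that of the tagged protein in all embryonic tissues together, and cells with strong binding cannot be told apart from a larger number of cells with weak binding.

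Drgx belongs to the paired-class homeodomain proteins, which bind short AT-rich words built on a TAAT core, singly or as a pair of inverted cores. Its vertebrate counterpart is named after the dorsal root ganglia and is known from sensory neurons. Sequence between genes can hold enhancers, stretches that transcription factors bind to control genes at a distance, and in flies the large gaps between genes often flank developmental regulators. A binding peak far from a gene does not by itself name the gene it acts on, so each peak below is named by its nearest protein-coding TSS as a label of place only.

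Summit sequences of strong distal intergenic peaks are printed first, because they show the base composition and the words that the later comparisons count. Each runs 50 bp to either side of the summit, on the plus strand of the dm6 assembly, read from the RefSeq copy of the same release, with matches to any of 20 preset transcription factor words (either strand) in capitals. Of the 20 named peaks of highest signal found in both replicates, 7 lie on 1 chromosome arm that is not printed, among them the 2 strongest. The 12 sequences below are those of highest signal among the other 13.
heca (chr3R:30265573-30265673): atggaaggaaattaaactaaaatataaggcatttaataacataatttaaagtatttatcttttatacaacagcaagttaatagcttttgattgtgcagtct
scyl (chr3L:11246194-11246294): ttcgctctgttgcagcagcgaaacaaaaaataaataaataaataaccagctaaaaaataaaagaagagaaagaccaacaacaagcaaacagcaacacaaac
c12.1 (chrX:9305876-9305976): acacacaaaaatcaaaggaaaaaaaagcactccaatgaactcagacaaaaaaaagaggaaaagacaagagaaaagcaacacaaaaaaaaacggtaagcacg
pxb (chr3R:15651928-15652028): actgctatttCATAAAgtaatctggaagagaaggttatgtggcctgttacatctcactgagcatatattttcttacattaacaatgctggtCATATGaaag
spel1 (chr2L:14370078-14370178): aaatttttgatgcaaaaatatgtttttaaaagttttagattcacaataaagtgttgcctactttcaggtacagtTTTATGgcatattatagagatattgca
hng3 (chr3L:762481-762581): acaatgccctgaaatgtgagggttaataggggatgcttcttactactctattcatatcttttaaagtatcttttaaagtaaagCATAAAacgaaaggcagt
CG43245 (chr3L:10752776-10752876): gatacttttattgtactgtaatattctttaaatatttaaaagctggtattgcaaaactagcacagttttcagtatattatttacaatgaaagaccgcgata
CG43245 (chr3L:10739839-10739939): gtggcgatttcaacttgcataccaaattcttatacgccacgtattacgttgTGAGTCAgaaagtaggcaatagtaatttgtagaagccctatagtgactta
CG14926 (chr2L:11324057-11324157): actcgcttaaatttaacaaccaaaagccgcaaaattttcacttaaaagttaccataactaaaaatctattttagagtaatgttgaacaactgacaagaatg
CG7320 (chr3L:18212333-18212433): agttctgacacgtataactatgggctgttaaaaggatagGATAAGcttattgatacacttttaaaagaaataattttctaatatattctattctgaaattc
Tollo (chr3L:15260727-15260827): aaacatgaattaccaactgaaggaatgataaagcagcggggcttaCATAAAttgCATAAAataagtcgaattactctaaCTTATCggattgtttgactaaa
CheA75a (chr3L:18235921-18236021): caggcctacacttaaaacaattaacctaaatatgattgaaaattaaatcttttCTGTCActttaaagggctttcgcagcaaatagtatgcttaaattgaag

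These 12 windows held 23.8% to 38.6% G and C, and the windows of all 20 named peaks held 18.8% to 62.4%. None of the 12 held the single homeodomain word TAATTA or a paired dimer, and 5 held no preset word at all; over all 20, TAATTA was in 1 window and a dimer in 0. The word TTTATG, bound by posterior Hox proteins and Caudal, was in 4 of them.

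The paired-class dimers, TAATNNATTA and TAATNNNATTA, are shown separately because they are the words known for proteins of the Drgx class. They were present in 15 of the 544 windows (2.76%), with 1 window holding both. The spacing of 2 was in 4 windows (0.735%) and the spacing of 3 in 12 (2.21%). Over all peaks of the list the shares were 1.07% for the spacing of 2 and 1.39% for the spacing of 3. Among other peaks they were 1.09% and 1.33%, and neither dimer passed (two-sided Fisher's exact tests, Benjamini-Hochberg adjusted p = 0.876 and 0.355). The windows 500 bp to the left held the spacing of 2 in 4 cases and the spacing of 3 in 9. Neither dimer passed there either (exact McNemar tests, adjusted p = 0.996 for the spacing of 3). Of the 15 peaks, 6 were found in both replicates, and the windows of 5 of these 6 follow, with the same use of capitals.
CG44869 (chr2L:15392471-15392571): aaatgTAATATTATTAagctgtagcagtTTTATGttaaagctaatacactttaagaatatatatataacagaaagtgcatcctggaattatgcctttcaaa
CG3473 (chr2L:14573379-14573479): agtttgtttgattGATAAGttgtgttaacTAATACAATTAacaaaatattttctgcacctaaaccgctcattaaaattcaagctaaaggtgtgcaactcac
Or65a (chr3L:6308774-6308874): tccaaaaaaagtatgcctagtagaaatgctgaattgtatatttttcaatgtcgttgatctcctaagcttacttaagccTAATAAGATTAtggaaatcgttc
CG43245 (chr3L:10738716-10738816): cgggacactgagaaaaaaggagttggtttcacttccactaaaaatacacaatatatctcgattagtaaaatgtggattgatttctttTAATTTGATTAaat
CheA75a (chr3L:18232291-18232391): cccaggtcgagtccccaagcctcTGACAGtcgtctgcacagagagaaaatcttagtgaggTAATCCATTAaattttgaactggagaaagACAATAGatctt

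Signals of the dimer peaks ran between 63.9 and 235, with a median of 125, and none of the 15 was among the 20 named peaks of highest signal.

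The 544 peaks were spread over 5 arms, with a high density on 3L. The territory, meaning every base that meets the position rule, came to 23.8 Mb, or 17.8% of the chromosomes. Arm 3L held 218 distal intergenic peaks, 40.1% of them, in 27.1% of the territory, or 33.8 per Mb (95% Poisson interval 29.5 to 38.6). Arm 2L held 107 (25.7 per Mb), 3R held 104 (23.0 per Mb), 2R held 80 (15.6 per Mb) and X held 35 (10.3 per Mb, interval 7.17 to 14.3). The interval of 3L overlapped that of 2L (21.0 to 31.0) and of no other large arm, and the interval of X overlapped that of 2R (12.4 to 19.4) and of no other. Chromosome 4 held 0 in 0.151 Mb, which allows up to 19.9 per Mb. Peaks outside the territory did not follow this order: they were densest on X (81.0 per Mb), followed by 3L (78.4 per Mb).

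Both replicates gave the same top and bottom arm. In the list of replicate 1 the density was 25.4 per Mb on 3L and 7.06 per Mb on X, and in the list of replicate 2 it was 21.6 per Mb on 3L and 4.71 per Mb on X. The territory beyond the first or last peak of any class, added over the ends of all chromosome arms, came to 9.25 Mb. By definition it holds no peak. With that sequence left out, a choice made after seeing the data, 3L stayed highest at 66.8 per Mb, 2R came to 41.3, 2L to 32.7, 3R to 31.4 and X stayed lowest at 12.6 per Mb.

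The density on 3L was concentrated in a few places. Of 137 stretches of 1 Mb that contain territory, the 4 with the most distal intergenic peaks were all on 3L, and they held 138 of the 544 (25.4%) in 2.97% of the territory. They held 46, 38, 30 and 24 peaks, at 157, 188, 243 and 273 per Mb of territory. After them came 2 stretches with 19 peaks each, 1 on 3L and 1 on 2R. The list of replicate 1 placed 28.5% of its own 389 distal intergenic peaks in the 4 stretches, and the list of replicate 2 placed 26.8% of its 339 there. Elsewhere on 3L the density was 13.9 per Mb of territory, or 31.3 per Mb between the outermost peaks. Other peaks, counted over the sequence outside the territory, were also denser in all 4 stretches, at 89.1 to 125 per Mb, against 71.9 per Mb in the rest of 3L. Because the stretches were picked for their counts, no test was made of them. At the other end, 47 of the 137 stretches held no distal intergenic peak.

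Distal intergenic peaks lay close to one another. The gaps between annotated genes that contain any territory numbered 1911, and 259 of them (13.6%) held the 544 peaks. There were 138 gaps with 1 peak and 121 with 2 or more, and these 121 held 406 peaks (74.6%, exact 95% interval 70.8 to 78.2). The interval treats peaks as independent, which peaks that share a gap are not. Gaps with a peak were larger, with a median of 15.2 kb, than gaps without, with a median of 9.72 kb. The counts make no allowance for gap size, and no values for other peaks are given here. The 24 gaps with 5 or more peaks held 163, and 14 of these 24 gaps were on 3L. The median distance to the nearest other distal intergenic peak was 2740 bp, with 1468 bp on 3L and 4542 bp on the other arms, and 238 peaks (43.8%) had one within 2 kb. In contrast, 77 peaks (14.2%) had none within 50 kb.

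Peaks of the list can overlap each other, which bears on these counts. A stronger peak of the same list overlapped 26 of the 544 (4.78%), against 452 of the 7899 other peaks (5.72%). Their summits lay 199 to 275 bp from the nearest other summit, and their median signal was 14.6. All 20 distal intergenic peaks with a signal under 30 were among the 26. Without the 26, 518 peaks remained, and 372 of them (71.8%) shared a gap.

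The 6 gaps with the most distal intergenic peaks were on 3L (4 gaps) and 3R (2 gaps). The gap between NijA, a cell-surface ninjurin, and CG43245 on 3L (chr3L:10696878-10771924) held 15 peaks in 75 kb, with signals between 62.1 and 514; 8 were in both replicates and 1 in neither. The gap between hng3 and CG13898 on 3L, counted from the tRNA gene that bounds it (chr3L:770463-803426), held 14 peaks in 33 kb, with signals between 8.26 and 436; 10 were in both replicates and 0 in neither. In both gaps strong and weak peaks were interspersed along the sequence.

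The other 4 gaps held 8 or 9 peaks each. Between Aps and CG14147 on 3L there were 9 peaks in 60.1 kb, with a highest signal of 328 and 4 in both replicates. Between Ids, which encodes the lysosomal enzyme iduronate 2-sulfatase, and sty (sprouty, an inhibitor of receptor tyrosine kinase signalling) on 3L there were 8 peaks in 14.0 kb, with a highest signal of 370 and 4 in both replicates. The next gap towards sty, past a noncoding RNA gene, held a further 7 peaks, and all 7 were in both replicates, with signals between 118 and 248. Together the 2 gaps beside sty held 15 peaks.

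On 3R, 8 peaks lay between CG18404 and heca (headcase, a regulator of imaginal and tracheal development) in 18.7 kb, with a highest signal of 769 and 5 in both replicates. A further 8 lay between Qsox2 and Eip93F, an ecdysone-induced transcription factor, in 33.6 kb, with a highest signal of 223 and 5 in both replicates. Left without the overlapped weaker peaks, the gap by NijA kept 15 peaks, that by Aps 9 and that by hng3 13, and the other 3 kept 7 each.

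**Figure D1:**
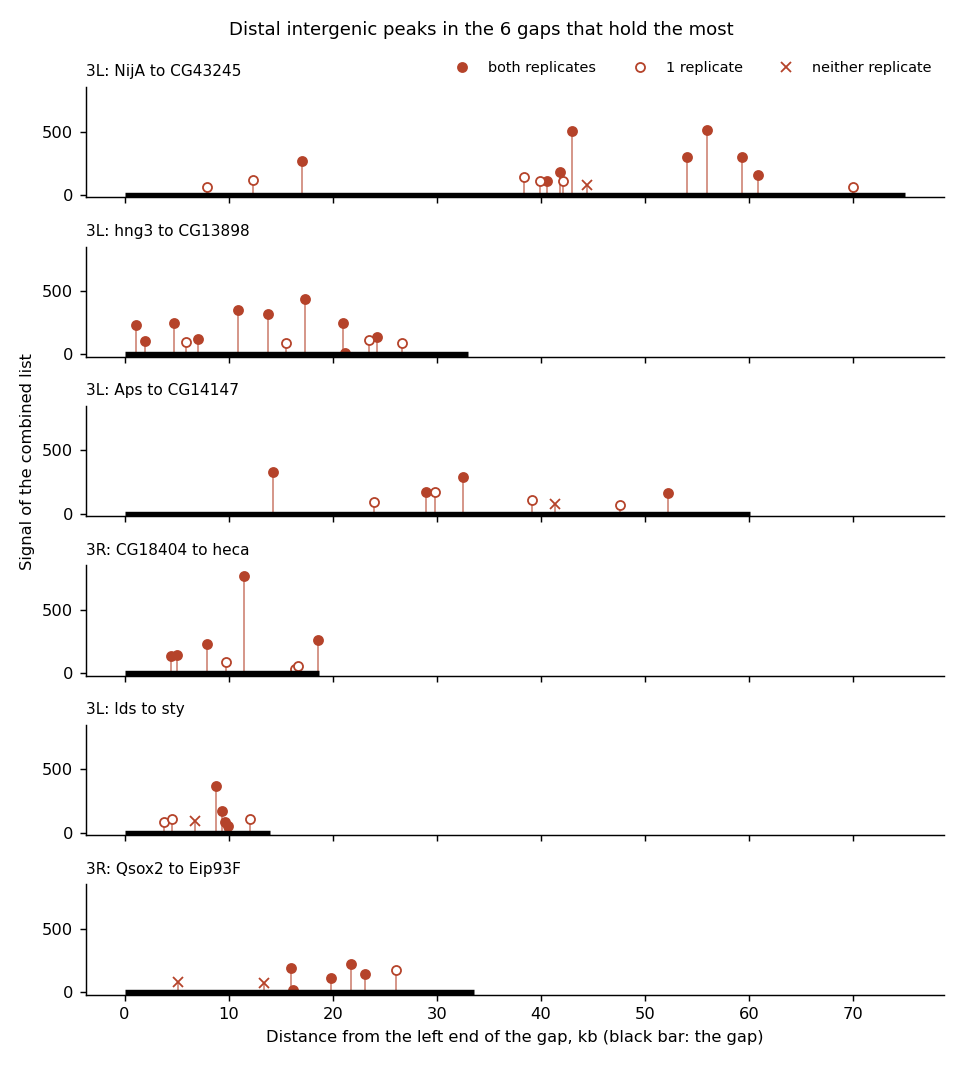
Signal of the distal intergenic peaks in the combined list against distance from the left end of the gap in kb, for the 6 gaps with the most such peaks; the black bar is the gap. Filled circles were found in both replicates, open circles in 1 and crosses in neither; every peak above a signal of 200 is filled.

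By distance, 254 of the 544 peaks lay 5 to 10 kb from the nearest coding TSS, 200 lay 10 to 20 kb away, 84 lay 20 to 40 kb away and 6 lay farther, with a median of 10732 bp. Over all territory the density was lower with distance, at 36.3, 30.6, 20.8 and 0.962 per Mb in the 4 classes. Between the outermost peaks of the arms it was 40.8, 38.5 and 36.6 per Mb in the first 3, with Poisson intervals that overlapped, and 6.96 per Mb beyond 40 kb (interval 2.55 to 15.1). The 3 farthest peaks lay 60773 and 60261 bp from Prat2, a purine synthesis gene, in the gap that it shares with vvl on 3L, and 52088 bp from CG17571 on 2L. Their signals were 93.7, 78.1 and 173, and of the 3 the peak by CG17571 was found in both replicates. A peak was upstream of its nearest coding TSS in 52.2% of cases, against 53.5% of the territory. For 306 peaks (56.2%) a noncoding TSS was closer than any coding one, and for 271 the nearest TSS of all belonged to a noncoding RNA gene. The position rule favours this, since it allows a noncoding TSS beyond 500 bp and a coding one only beyond 5000 bp. The matching share of the territory was not counted.

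The peaks closest to the limit of 5000 bp overlapped in signal. Inside it were peaks at 5012 bp from tal-1A (signal 112), 5019 bp from 18w (77.9) and 5024 bp from hid (283). Outside it were peaks at 4994 bp from Gr93a (16.1), 4976 bp from CG13481 (108) and 4973 bp from CG8117 (158).

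The signal values are the authors' own score per peak, and they rank peaks within 1 list only. Depth is unknown, because no read counts accompany these peaks. Distal intergenic peaks had a median signal of 115, against 121 for all other peaks. At or above the median of the list, 120, were 249 of them (45.8%, exact 95% interval 41.5 to 50.1), where 50% of all peaks are. Among the 1000 strongest peaks were 38 (6.99%), where 11.8% of all peaks are, and 12.2% of the other peaks. Low shares were also seen in other classes. They were 8.39% for peaks between genes within 5000 bp of a coding TSS and 9.10% for peaks deep in introns. The median signals of these 2 classes were 119 and 116. The strongest distal intergenic peak nonetheless had rank 6 of 8443.

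That strongest peak lay on 2R, 11914 bp downstream of the TSS of CG13323, in the 36.8 kb gap whose other side is Su(z)2, a Polycomb-group gene. Its signal was 2152 in the combined list, 1260 in the list of replicate 1 and 876 in that of replicate 2. The next, with 1258 in the combined list (816 in replicate 1 and 405 in replicate 2), lay on 2R 7613 bp downstream of RYBP, which encodes a partner of Polycomb-group proteins. A further peak of that gap, 6320 bp from the RYBP TSS, had a signal of 591 (379 in replicate 1 and 236 in replicate 2).

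Next in signal after the 2 strongest, the peak by heca on 3R (12309 bp upstream) had 769, with 394 in replicate 1 and 378 in replicate 2. The peak by scyl, a stress-responsive growth inhibitor (3L, 6063 bp upstream), had 760, with 410 in replicate 1 and 314 in replicate 2. On X, a peak between lz, a Runx-family transcription factor gene, and c12.1 had 714, with 394 in replicate 1 and 323 in replicate 2. All 6 peaks of this and the preceding paragraph were well above the list median of 120.

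The remaining peaks of the 20 strongest that were found in both replicates had signals between 436 and 694. They lay by pxb (694), betaTub60D, a beta-tubulin gene (690), spel1, a mismatch repair gene (672), hng3 (620), CG43245 (514 and 506), CG14926 (504), CG46388 (475), CG11041 (470), CG7320 (451), Tollo, a Toll-family receptor gene (446), CheA75a (442), Paics, a purine synthesis gene (436), and ptc, the Hedgehog receptor gene (436). Of the 20, 7 were on 2R, 7 on 3L and 2 each on 2L, 3R and X. Their distances to the nearest coding TSS ran between 5.25 and 32.0 kb.

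Fewer than 1 in 2 distal intergenic peaks were found in both replicates. A peak of both replicate lists overlapped 258 of the 544 by 1 bp or more (47.4%, exact 95% interval 43.2 to 51.7), where 51.1% of all peaks do. The share was 51.3% for all other peaks, a difference of -3.91 percentage points (Newcombe 95% interval -8.22 to 0.433; two-sided Fisher's exact test, p = 0.0837, Benjamini-Hochberg adjusted over 3 comparisons 0.251). It was 49.6% for gene-proximal intergenic peaks, those between genes but within 5000 bp of a coding TSS (difference -2.21, interval -7.79 to 3.40; exact adjusted p = 0.456), and 50.1% for peaks deep in introns (difference -2.67, interval -7.51 to 2.20; exact adjusted p = 0.444). Peaks are the units of these tests, so p-values and intervals cover counting error and not the clustering of peaks. None of the 3 differences passed, and the intervals leave room for a share up to 8.22 points lower.

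The list of replicate 1 matched 68.0% of the distal intergenic peaks (71.5% of all peaks), and that of replicate 2 matched 60.5% (61.4% of all peaks). Both shares include the peaks found in both lists. Only replicate 1 matched 112 (20.6%, against 20.4% of all peaks), and only replicate 2 matched 71 (13.1%, against 10.3% of all peaks). A further 103 were matched in neither (18.9%, against 18.2% of all peaks). Of those 103, 98 (95.1%) overlapped a peak in the longer unthresholded lists of both replicates. The same held for 97.1% of all peaks matched in neither. The unthresholded lists hold 85586 and 77876 peaks and overlapped 98.3% and 99.8% of the 544, so such an overlap says little. The conservative list held 84.7% of the 544 (84.6% of all peaks). Where both replicates had the peak, the summits lay a median of 10 bp (replicate 1) and 18 bp (replicate 2) from the combined summit.

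**Figure D2:**
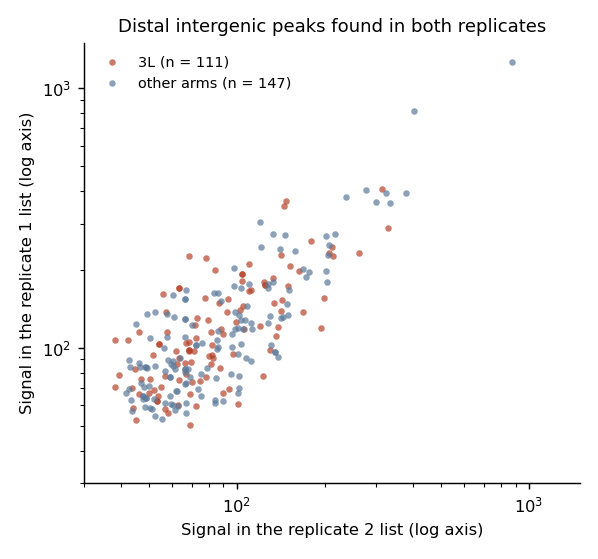
Signal in the replicate 1 list against signal in the replicate 2 list for the 258 distal intergenic peaks found in both, on log axes, with peaks of 3L and of the other arms in different colours. Peaks that are strong in 1 list are mostly strong in the other, and the 3L peaks lie within the spread of the rest.

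Across the 258 peaks found in both replicates, the 2 replicate signals had a Spearman correlation of 0.701, and their log2 values a Pearson correlation of 0.785. This describes peaks that share libraries, and the requirement to be in both lists removes the weakest. The same rank correlation was 0.798 over the 4055 other peaks.

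Recovery followed signal closely. With the distal intergenic peaks divided by signal into 5 classes of 108 or 109, 99.1% of the strongest class were in both replicates, and 81.7%, 39.8%, 5.50% and 11.0% in the classes below it. The other peaks in the same signal ranges gave 98.1%, 84.7%, 45.3%, 8.54% and 10.6%. The higher share in the weakest class stands beside the overlapping peaks described above, since 25 of the 26 lie in that class and 13 of the 26 overlap a peak of both replicates. Without them 0 of the 84 remaining distal intergenic peaks of the class were in both replicates, which allows a share of up to 3.57%, against 18 of 1238 other peaks in that signal range that overlap no stronger peak (1.45%).

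**Figure D3:**
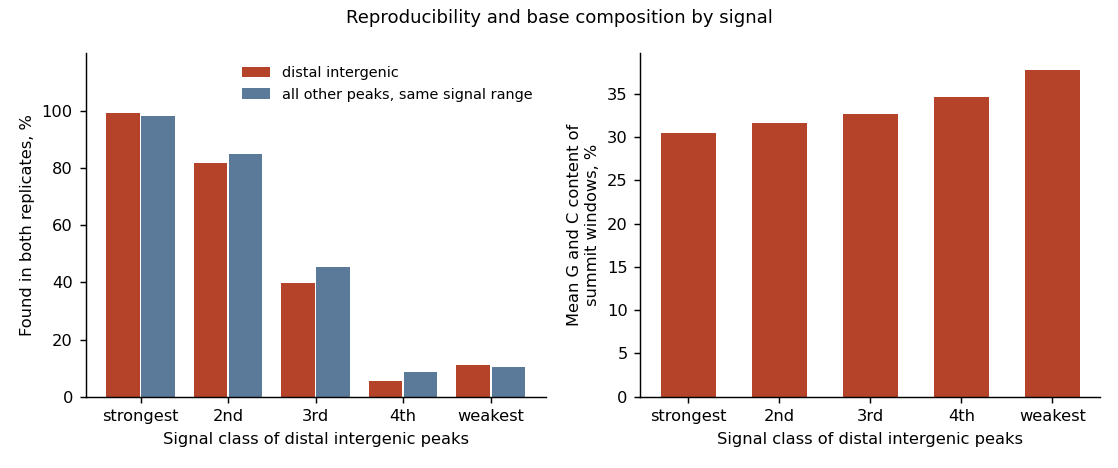
Left, share found in both replicates for the distal intergenic peaks and for all other peaks in the same signal range, by 5 signal classes of the distal intergenic peaks from the strongest to the weakest; right, mean G and C content of the distal intergenic summit windows in each class. The share is lowest, 5.50%, in the next to weakest class and the G and C content is lowest, 30.4%, in the strongest.

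The summits lay in short AT-rich dips of sequence. Windows reaching 50 bp to either side of distal intergenic summits held 33.4% ± 9.53 G and C (SD over 544 windows), against 42.2% at 500 bp to the left of the summit, 43.0% at 500 bp to the right and 40.9% in windows every 1000 bp over the territory. Summits of all other peaks held 37.2%, those in deep introns 34.8% and gene-proximal intergenic ones 35.1%. Within the distal intergenic peaks the content was lower the stronger the peak, at 30.4% in the strongest of 5 signal classes and 37.8% in the weakest. The 26 overlapped peaks held 48.1%, and without the 25 of them in the weakest class that class held 34.8%, beside 34.6% in the class above it.

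**Figure D4:**
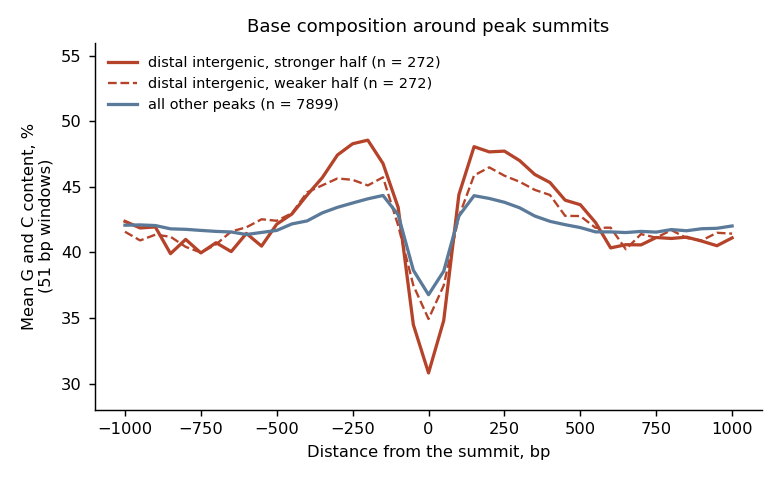
Mean G and C content in 51 bp windows every 50 bp against distance from the summit in bp, for the stronger and the weaker 272 distal intergenic peaks and for all other peaks. A dip of about 100 bp to each side of the summit, deepest in the stronger distal intergenic peaks (30.8%), is flanked by shoulders that reach 48.6% at 200 bp to the left.

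The dip was narrow and had G and C rich shoulders. In the stronger 272 distal intergenic peaks the mean was 30.8% at the summit, 48.6% at 200 bp to the left and 48.1% at 150 bp to the right, and 42.4% and 41.1% at 1000 bp. Over all 544 it was 32.9% at the summit and the shoulders reached 47.1%, against 36.8% and 44.3% in all other peaks. A run of 10 or more A and T bases stood in 282 of the 544 summit windows (51.8%, exact 95% interval 47.5 to 56.1; 46.8% of all peaks), against 161 of the windows to the left (29.6%) and 46.5% of the summits of other peaks. Such a run stood in 50.7% of deep intron summits and in 50.7% of gene-proximal intergenic summits. No test was made of composition. How it relates to the sequencing and alignment of these libraries was not tested.

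Annotated transposable elements were almost absent. They held 1 of the 544 summits (0.184%), against 13 of 7899 other summits (0.165%), while 13.1% of the territory windows lay in one, 9.57% between the outermost peaks. The share of soft-masked bases, those marked as repeats or low complexity in the reference, was 23.0% at distal intergenic summits, against 23.2% at other summits and 17.1% in the windows to the left. Repeats can lose reads at alignment, and how reads matching several places were treated was not given in the sources used here.

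Of 20 preset words, none passed the test between the distal intergenic summits and their left neighbours (exact McNemar tests, Benjamini-Hochberg adjusted over the 20; 0.00% called), and 2 had an unadjusted p under 0.05. The words were chosen with earlier results of these data known. Here and below, p-values and intervals for words cover counting error and not the clustering of peaks. The homeodomain word TAATTA stood in 53 of the 544 summit windows (9.74%; 7.97% of all peaks), against 32 of the neighbours (5.88%; exact p = 0.0238, adjusted 0.238). CAGCTG, an E box bound by basic helix-loop-helix proteins, stood in 7 (1.29%; 3.34% of all peaks), against 20 neighbours (3.68%; exact p = 0.0192, adjusted 0.238). In 311 windows (57.2%) no preset word was found, which says only that these letters are not in this window. The same share was not counted for other peaks, so it does not set the distal intergenic peaks apart. Over territory windows the share with TAATTA was 6.94%. Among windows with at most 30.7% G and C it was 16.0% over the territory, against 11.6% at distal intergenic summits, so the direction turned there.

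Against the summits of all other peaks, 2 of the 20 words passed (10% called; two-sided Fisher's exact tests, adjusted over the 20). TGACAG, a word of TALE homeodomain proteins, was in 28 of the 544 windows (5.15%; 2.81% of all peaks), against 2.65% of other peaks (exact p = 0.00175, adjusted 0.0350; difference 2.50 points, Newcombe interval 0.894 to 4.72). The share of TGACAG was 3.68% in the left neighbours (exact McNemar test, adjusted p = 0.646) and 4.07% in territory windows. Both lie above the share in other peaks. CAGCTG was in 1.29%, against 3.48% (exact adjusted p = 0.0412; difference -2.19, interval -2.98 to -0.796). The call for TGACAG was lost under all 8 alternatives tried and that for CAGCTG under 7 of 8, the conservative list being the exception. The difference for TGACAG kept its direction and was 1.08 to 2.80 points under the 8. In the replicates' own lists neither passed (exact adjusted p = 0.144 and 0.160 for TGACAG, and 0.380 and 0.666 for CAGCTG). With the overlapped weaker peaks left out, the exact adjusted p was 0.0536 for each. Among windows with at most 30.7% G and C, the median of the distal intergenic windows, CAGCTG was in 1.44% of distal intergenic summits, against 0.926% of other summits, so the direction turned. TGACAG was in 3.97% of distal intergenic summits in those windows, against 1.85% of other summits (exact adjusted p = 0.499).

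TAATTA did not pass against other peaks, with 9.74% against 7.85% (exact adjusted p = 0.355; difference 1.89 points, interval -0.407 to 4.73), and in the windows of low G and C content the shares were 11.6% and 13.9%. TAATCC, the word of homeodomains with a lysine at position 50 of the domain, was in 5.15% (3.20% of all peaks), against 3.06% (exact adjusted p = 0.0754). It passed in 2 of the 8 alternatives: against gene-proximal intergenic peaks (difference 3.56 points, exact adjusted p = 0.00930) and with 100 bp on either side of the summit (3.59 points, exact adjusted p = 0.0139). GAGAGAG, the word of GAGA factor, was in 1.29% (2.93% of all peaks), against 3.04% (exact adjusted p = 0.0849), and passed with 100 bp on either side (-3.03 points, exact adjusted p = 0.0445). TAATTA was no more frequent in strong peaks: it was in 8.26% of the strongest of the 5 classes and in 8.26% of the weakest, and in 1 of the 20 named peaks of highest signal.

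The words of other factor families did not pass against other peaks, with exact adjusted p between 0.227 and 1. TTTATG was the most frequent preset word, in 68 distal intergenic windows (12.5%; 11.4% of all peaks), against 11.3% of other peaks. The GATA word GATAAG was in 4.96% (4.51% of all peaks), against 4.48% of other peaks, and the Sox word ACAATAG in 1.84% (1.23% of all peaks), against 1.19%. The POU word ATTTGCAT was in 0.735% (1.48% of all peaks), against 1.53%. Among the E boxes, CATATG was in 3.31% (3.59% of all peaks), against 3.61%, and CACCTG in 1.65% (2.19% of all peaks), against 2.23%.

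The remaining words were in at most 7 distal intergenic windows each. The ETS word CCGGAAG was in 0.735% (0.272% of all peaks), against 0.241% of other peaks, and the AP-1 word TGAGTCA in 0.735% (0.888% of all peaks), against 0.899%. CATTCCA, the word of TEAD proteins, was in 1.29% (1.43% of all peaks), against 1.44%, and AACCGG, bound by Grainy head, in 0.919% (1.55% of all peaks), against 1.60%. CAGGTAG, the word of the early embryonic factor Zelda, was in 0.368% (0.332% of all peaks), against 0.329%. Words common at promoters were rare at distal intergenic and at other summits. DREF's TATCGATA was in 0.368% (0.403% of all peaks), against 0.405%. M1BP's GGTCACAC was in 1 window (0.184%; 0.497% of all peaks), against 0.519%.

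The 544 peaks had 260 different nearest coding genes, and 154 of these had a single peak. The most were by CG43245 (16 peaks), Ids (13), hng3 (12) and CG13898 (11), all on 3L. A peak of the list also lay within 500 bp of a TSS of 65 of the 260 genes (25%), where 20.9% of all coding genes have one, and 14.3% of the genes that are nearest to any part of the territory. Genes known only by a CG number were nearest to 45.4% of the peaks, against 43.2% of the territory.

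The peaks were then counted by lists of genes with a known function, beside the territory whose nearest coding TSS belongs to the same list. Over the whole territory there were 22.8 peaks per Mb, and 37.3 per Mb between the outermost peaks of the arms. The densities of the lists below use all territory. How much of each list's territory lies beyond the outermost peaks is not given here. Homeobox transcription factor genes were nearest to 21 peaks by 11 genes (3.86%, exact 95% interval 2.41 to 5.84, in 3.14% of the territory, 28.1 per Mb). The 3 strongest were 2 by vvl, a POU-homeodomain gene, with signals of 295 and 182, and 1 by Dr, a muscle segment homeobox gene, with 192. The vvl peaks had 192 and 102 in replicate 1 and 104 and 82.1 in replicate 2, at 33847 and 9576 bp downstream of its TSS. The Dr peak had 98.4 in replicate 1 and 85.7 in replicate 2. A further 4 peaks lay by en, the segment polarity gene engrailed, with signals of 157, 93.1, 66.7 and 24.5, of which the first was in both replicates.

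Other developmental transcription factors were nearest to 30 peaks by 15 genes, at 47.9 per Mb. The strongest lay by H15, a T-box gene that shares its gap with the related gene mid, with 375 (201 in replicate 1 and 168 in replicate 2), 22406 bp from its TSS. The next was by chinmo, a neuronal timing gene, with 232 (96.5 in replicate 1 and 135 in replicate 2), and the one after it was by salm, a spalt zinc-finger gene, with 212 (78.5 in replicate 2 and not in the list of replicate 1). The pair-rule gene hry (hairy) had 6 peaks with signals between 79.2 and 184, of which 2 were in both replicates.

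Signalling ligands and receptors were nearest to 15 peaks by 9 genes, at 70.0 per Mb of a small territory of 0.214 Mb. The strongest lay by ptc, named above (229 in replicate 1 and 206 in replicate 2), by upd1, a ligand of the JAK/STAT pathway, with 202 (113 in replicate 1 and 96.2 in replicate 2), and by the Wnt ligand gene Wnt10, with 178 (79.4 in replicate 1 and 95.7 in replicate 2). Axon guidance and cell adhesion genes lay at the other end, with 7 peaks by 4 genes at 7.12 per Mb of 0.984 Mb. Their strongest were 2 by the Toll-family gene 18w, with 303 and 269, and 1 by dally, a heparan sulfate proteoglycan gene, with 278, all in both replicates.

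The remaining lists gave few peaks. Synaptic, transmitter and ion channel genes had 3 (15.2 per Mb), by GluRIIB, a glutamate receptor subunit gene (288), ppk, a sodium channel gene of sensory neurons (227), and Nlg1, a neuroligin gene (86.0, in neither replicate). Muscle and mesoderm genes had 2, at 67.4 per Mb of only 0.0297 Mb of territory, by Zasp52, a Z-disc gene (137), and tey (130). Cuticle genes had 2 (28.1 per Mb), both by mey (173 and 10.8, overlapping each other), and ribosomal protein genes had 2 (7.83 per Mb), both by RpL40 (54.4 and 13.4, in neither replicate). These counts are descriptions without a test, since neighbouring peaks share a gene and the lists were chosen with results of these data known.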

How the data were processed

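The deposited lists, which have no header line, give each peak's position on dm6, the authors' signal value (column 7) and the summit offset (column 10). Per the deposited readme texts, the combined list came from the alignments of both replicates and 1 further file and was thresholded by irreproducible discovery rate, and each replicate has a list of its own. The scale of the signal is not stated, so ranks and cut-offs were taken within 1 list only. Values of different lists are given side by side, and the replicate lists were compared only by correlation over shared peaks. The aligner, the peak caller and the rule that joined the replicates were not given in the sources used here. All value columns used were mapped, with 0 left over. Members, words and gene lists were chosen with earlier results of these data known.

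Summits were placed against an Ensembl annotation (release 115), without transposable elements, and sequence came from the RefSeq copy of dm6. A peak counted as found in a replicate if it overlapped a thresholded peak of that replicate by at least 1 bp. Words were sought on both strands within 50 bp of the summit, and compared with the windows 500 bp to the left by exact McNemar tests and with other peaks by Fisher's exact tests, both Benjamini-Hochberg adjusted over the 20 words. Of 671 listed gene symbols 12 had no match. Named were the 20 strongest peaks found in both replicates, the 6 gaps with the most peaks, the 3 farthest peaks and up to 3 per gene list; genes with the most peaks, the second gap beside sty, en and hry were added after their values were seen. Python 3.11.15, NumPy 2.4.6, pandas 2.3.3, SciPy 1.17.1, statsmodels 0.14.6 and matplotlib 3.10.9 were used. The position rule and the word tests were tested on simulated data.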

Additional observations from a re-analysis of the deposited data

How the results depend on the processing

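Leaving out the peaks that overlap a stronger one, restricting the territory and restricting windows by G and C content were chosen after seeing the data. The number of distal intergenic peaks was 290 over 10000 bp from a coding TSS and 249 in the stronger part of the list. The difference in the share found in both replicates stayed negative and missed the threshold under every alternative, with exact adjusted p between 0.137 and 0.949. Words past the threshold against neighbours numbered 1 with 100 bp on either side (ATTTGCAT). Against other peaks they numbered 1 with gene-proximal intergenic peaks as the reference (TAATCC) and 1 with the conservative list (CAGCTG), 2 with 100 bp on either side (TAATCC and GAGAGAG, not the 2 of the main comparison), and 0 with deep intron peaks, in windows of low G and C content and without overlapped peaks. Directions turned without passing in low G and C windows: TAATTA (-2.33 points), CAGCTG (0.518 points) and GAGAGAG (0.0406 points); TGACAG turned against neighbours with 100 bp on either side (-0.735 points). G and C content was 32.7% without overlapped peaks and 36.7% with 100 bp on either side, and the soft-masked share 21.2% with 100 bp. The density on 3L was 66.8 per Mb between the outermost peaks. Counting either flanking coding gene, the share was 6.80% for homeobox, 7.35% for signalling, 2.76% for axon guidance and 1.84% for synaptic genes, against 3.86%, 2.76%, 1.29% and 0.551% by the nearest gene. The cause of these changes was not tested, except that stricter rules keep fewer peaks.

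In the lists of single replicates the number of peaks was 339 to 389, the share at or above the median signal 44.0% to 45.5%, the words past the threshold 0 to 0 in both comparisons, the G and C content 32.6% to 33.5%, the soft-masked share 21.9% to 24.5%, the density on 3L 21.6 to 25.4 per Mb, the share in gaps with 2 or more 60.2% to 68.4%, and the homeobox share 2.83% to 3.83%. The cause of these ranges was not tested. The share found in both replicates needs both lists and has no such value. No paired analysis was possible because the study has 1 group.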
